A study of Mus musculus with 16 samples.

Results

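Imprinted genes are the genes of which mainly the copy from the mother or mainly the copy from the father is transcribed. The choice rests on DNA methylation laid down in the egg or the sperm at control regions, which the embryo keeps while the rest of the genome is reset, so these genes are a standard place to look where DNA methylation is lost. A list of 44 imprinted mouse genes was matched by symbol to the count table of the study, which holds 14858 genes. It found 34 of them. The other 10 (Usp29, Peg10, Asb4, Ddc, Dlk1, Rtl1, Dio3, Snrpn, Magel2 and Peg12) were not analysed here. Of the 34, 32 passed the filter on low counts and were tested, whereas Mirg and Nap1l5 did not pass. The list was matched by symbol alone and its rule used no measured value, but it was chosen with earlier results of these data known.

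The samples were whole skin of the hind limb from female BALB/cAnNTac mice, aged about 10 to 16 weeks, of the Rodent Research-8 mission, with 1 library for each of 16 mice. The 6 ground controls were age-matched and stayed on Earth. The labels give about 40 days in flight for the mice exposed to the space environment (ESE), although the mice killed on the International Space Station (ISS) flew for a shorter time by the methods of the work. The flown mice are labelled by the level of methylated cytosine (5mC) in their skin DNA. The 4 mice labelled Flight group Low 5mC are called the responder ESE cohort, and the 6 mice labelled Flight group High 5mC the non-responder ESE cohort. Cohort membership was therefore set by a methylation measurement after flight and not by random assignment. Each group mixes mice killed on the ISS with mice of the live animal return (LAR) arm, or their ground counterparts. The comparisons are not adjusted for the arm, which entered only as an alternative, and fold changes within each arm are given beside the results they move. The counts cannot tell the maternal from the paternal copy, so a level given below is the sum over both. A gene called maternally or paternally expressed is so by annotation, which need not hold in this skin. In whole skin, fewer cells of a type and less RNA per cell cannot be told apart.

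Total counts were 4159342 to 22593931 per library. The RNA was degraded, with an RNA integrity number of 1.2 to 2.7, and rRNA took 13.3 to 57.3% of the raw reads. The integrity number was 1.8 to 2.7 in the ground controls (median 1.95), 1.2 to 1.9 in the non-responders (median 1.7) and 1.5 to 2.1 in the responders (median 1.7). The part of this imbalance in the comparisons with ground controls was not tested. Epidermal markers (6 of 6 in the table, none at 0 in all libraries) were summed at 2828 to 16677 CPM (counts of a gene scaled to a fixed library total) in every library. A few libraries stood apart in the tissue they held. Ground control 6 had 56024 CPM of 8 skeletal muscle markers, against 9.38 to 4742 CPM in the other 15 libraries. Non-responder 4 had 3241 CPM of 5 adipocyte markers and 513 CPM of 5 endothelial markers, the highest values of all 16 libraries. Ground control 3 had 158788 CPM of 6 anagen hair matrix markers, against 808 to 76617 CPM in the other 15 libraries. The medians of this hair sum were 7693 CPM in the ground controls, 32976 CPM in the non-responders and 23317 CPM in the responders. The part of hair in the levels below was not tested. Responder 1 had 1658 CPM of 4 liver markers. These libraries were kept, and the fold changes that each of them moves by over 1.5 times are also given without it.

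Promoters of 4 members are shown because their genes carry the values described below. They are those of the antisense RNAs Kcnq1ot1 and Airn, of the maternally expressed Zim1 that varied with the paternally expressed Peg3, and of Plagl1. Plagl1 was among the 4 members of smallest p in each comparison of a flight cohort with ground controls. The windows are RefSeq sequences of build GRCm38.p6, written 5′ to 3′ on the strand of the gene, and run from 250 bases before to 50 bases after an annotated start. Capitals mark TGCCGC or its reverse complement GCGGCA, the core bound by the zinc finger protein ZFP57, which protects methylation at imprinting control regions.
Kcnq1ot1, chr7:143296498-143296797, minus strand: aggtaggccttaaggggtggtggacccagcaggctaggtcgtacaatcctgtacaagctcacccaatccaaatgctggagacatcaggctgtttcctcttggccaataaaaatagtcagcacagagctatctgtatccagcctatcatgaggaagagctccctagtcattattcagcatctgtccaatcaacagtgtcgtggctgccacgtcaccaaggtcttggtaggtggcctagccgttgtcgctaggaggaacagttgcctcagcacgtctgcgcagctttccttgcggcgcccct
Airn, chr17:12741061-12741360, plus strand: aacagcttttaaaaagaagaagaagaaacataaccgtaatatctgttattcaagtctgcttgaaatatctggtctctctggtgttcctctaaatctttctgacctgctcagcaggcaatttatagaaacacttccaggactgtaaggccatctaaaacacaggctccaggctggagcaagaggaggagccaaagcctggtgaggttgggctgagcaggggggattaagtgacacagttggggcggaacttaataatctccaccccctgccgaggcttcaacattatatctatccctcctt
Zim1, chr7:6696383-6696682, minus strand: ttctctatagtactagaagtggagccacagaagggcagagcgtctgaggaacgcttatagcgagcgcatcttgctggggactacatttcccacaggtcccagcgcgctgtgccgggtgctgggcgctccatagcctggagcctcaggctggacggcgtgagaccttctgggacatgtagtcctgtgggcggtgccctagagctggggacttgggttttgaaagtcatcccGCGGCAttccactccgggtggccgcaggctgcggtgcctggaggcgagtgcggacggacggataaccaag
Plagl1, chr10:13090582-13090881, plus strand: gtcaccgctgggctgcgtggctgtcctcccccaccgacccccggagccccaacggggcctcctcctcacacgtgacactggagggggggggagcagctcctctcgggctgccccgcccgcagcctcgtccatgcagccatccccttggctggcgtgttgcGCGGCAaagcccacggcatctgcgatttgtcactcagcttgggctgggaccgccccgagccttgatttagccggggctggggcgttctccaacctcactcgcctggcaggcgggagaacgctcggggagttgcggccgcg

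The Zim1 and Plagl1 windows held 1 match each, and those of Kcnq1ot1 and Airn held none. The windows differed in CpG, the dinucleotide that is methylated, with 26 in Plagl1, 20 in Zim1, 9 in Kcnq1ot1 and 3 in Airn. Promoter windows were at hand for 26 of the measured members, some with several starts, and gave 39 windows. Of these, 12 windows (30.8%) held the letters on either strand, against 11.6% of all 32851 windows of the same length in the table. The median CpG count was 17 in the windows of members and 7 in all windows. A match is a description of the letters and not of a bound site.

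In responder ESE mice compared with ground controls, no imprinted gene passed the adjusted threshold. The comparison addresses whether the cohort with low 5mC differs at genes annotated as imprinted, although their imprinting was not measured in this skin. With p-values of the quasi-likelihood test (edgeR) adjusted by Benjamini-Hochberg over all 14107 genes tested, 0 of 32 members were called, against 0.00709% of all genes (1 gene). At an unadjusted p under 0.05 there was 1 member, Nespas, against 3.42% of all genes. In no member did the CPM of the groups fail to overlap, against 0.432% of all genes. The fitted value was above 0 in 11 members and below 0 in 21, with a median log2 fold change of -0.25 beside -0.05 over all genes tested. Without ground control 6, 29 members could be fitted, 16 of them above 0 and 13 below, with a median of 0.00. The same 29 members with all libraries had a median of -0.19.

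In non-responder ESE mice compared with ground controls, again 0 of 32 members were called, against 0% of all genes. No member had an unadjusted p under 0.05, against 6.96% of all genes. No member had groups that did not overlap, against 0.241% of all genes. The median log2 fold change of the members was -0.06, beside -0.05 over all genes, with 14 members above 0 and 18 below. Without ground control 6 the median was 0.35 over 29 members, 21 of them above 0 and 8 below, against -0.04 for the same 29 members with all libraries. Both comparisons use the same 6 ground controls, and ground control 6 therefore entered both.

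The responder ESE cohort was compared with the non-responder ESE cohort directly, and 0 of 32 members were called, against 0% of all genes. No member had an unadjusted p under 0.05, against 2.17% of all genes, and none had groups that did not overlap, against 0.22% of all genes. The median of the members was -0.10, beside 0.01 over all genes, with 12 members above 0 and 20 below. DESeq2 and edgeR's likelihood ratio test called 0 members in each of the 3 comparisons as well. DESeq2 gave no p-value for Igf2 in the non-responders against ground controls, so Igf2 could not be called there.

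Whether the differences depended on the arm was tested by an interaction term in edgeR. No member passed the adjusted threshold in any of the 3 comparisons, against 0% of all genes. At an unadjusted p under 0.05 there were 2 members for responders against ground controls (Grb10 and Zdbf2), against 5.17% of all genes. There were 2 for non-responders against ground controls (H19 and Zdbf2), against 3.4% of all genes, and 1 between the cohorts (Ppp1r9a), against 3.83% of all genes. These members are named because of their values.

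These counts of 0 do not show that the levels were alike. The median standard error of the members' log2 fold changes was 0.65 for responders and 0.58 for non-responders, each against ground controls, and 0.64 for responders against non-responders. The 95% interval lay wholly within a doubling and a halving for 6, 8 and 7 of the 32 members in that order. Changes of 2-fold or more were therefore within the interval for the remaining members. The median SD of log2 CPM within groups was 1.02 over the 32 members and 0.57 over all 14107 genes tested. Trappc9 had the smallest spread (0.17) and Nespas the largest (2.27).

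**Figure D1:**
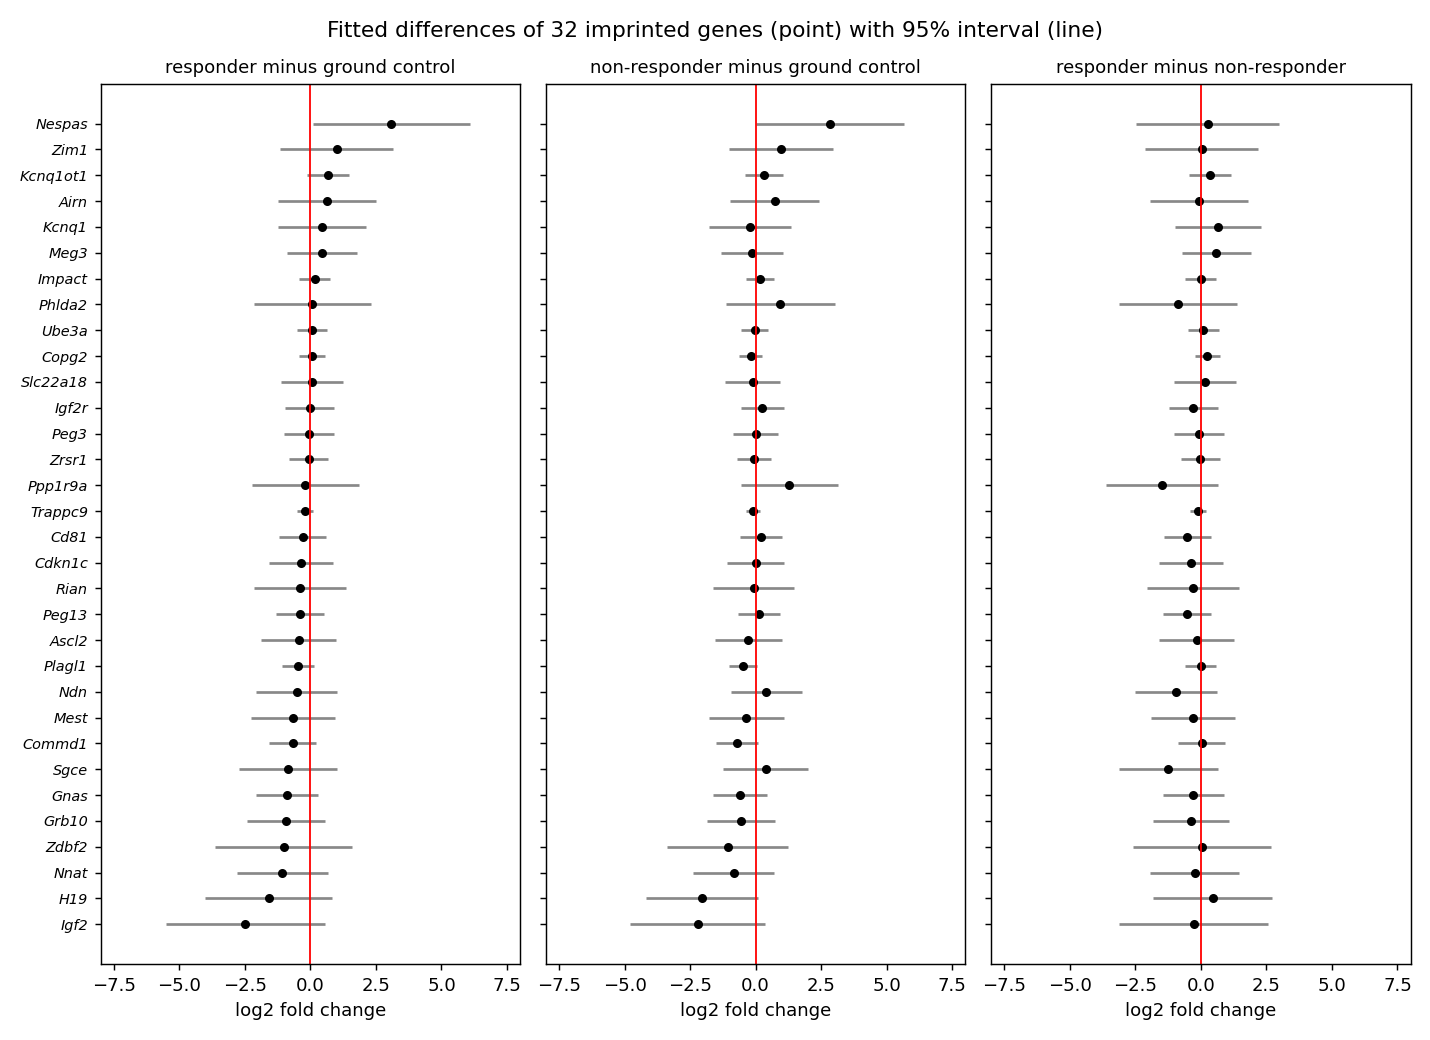
Fitted log2 fold change (x axis) of the 32 tested imprinted genes (y axis, in the order of the responder comparison) in the 3 comparisons; points are estimates of edgeR, lines are 95% intervals and the red line is 0. In the comparison of responders with ground controls the interval of Nespas alone leaves out 0, and the adjusted p of every member is above the threshold of 0.05.

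Imprinted genes grow or restrain the body through growth factors, receptors and cell cycle inhibitors, and long noncoding RNAs within a cluster hold their neighbours silent on the same chromosome. The levels are described in that order. Per length (CPM per kilobase of exon), the most abundant members were Gnas with a median of 22.2 over the 16 libraries, Commd1 with 12.8, H19 with 12.7, Cd81 with 12.6 and Ube3a with 11.9. The ranges of these 5 over libraries overlapped, so their order was not fixed from mouse to mouse. The reads came from exon capture, and how well the capture covers each member, coding or noncoding, was not examined. The order is therefore one of captured reads and need not be that of the RNAs in the tissue. The lowest medians were those of Igf2 (0.145), Nap1l5 (0.090) and Zdbf2 (0.021).

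H19 is a maternally expressed long noncoding RNA and the host of miR-675, and Igf2, its neighbour, is the paternally expressed insulin-like growth factor of fetal growth. H19 lies at chr7:142575530-142578146 and Igf2 at chr7:142650768-142661035 (mm10, minus strand). The mature sequences of the microRNA within H19 are shown because the H19 transcript carries them, and capitals mark the seed (bases 2 to 8). The microRNA itself was not measured.
mmu-miR-675-5p: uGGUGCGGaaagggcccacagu
mmu-miR-675-3p: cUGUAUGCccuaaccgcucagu

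H19 was at 5.37 CPM in the lowest, 70.9 CPM in the median and 665 CPM in the highest ground control. In the non-responders its lowest, median and highest levels were 10.5, 14.2 and 153 CPM, and the responders had 16.8, 54.8, 91.4 and 47.7 CPM. The groups overlapped, and the highest level of each flight cohort was below that of ground control 6. The log2 fold change of the non-responders against ground controls was -2.04 (SE 1.0, adjusted p = 0.66 by edgeR). It was -0.55 without ground control 6 and -3.29 without non-responder 3, which had the highest H19 level of its cohort. Within the ISS arm it was 0.20 and within the LAR arm -3.94.

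Igf2 was at 0 in the lowest, 0.467 CPM in the median and 27 CPM in the highest ground control, which was again number 6. The non-responders had 0.177 to 2.42 CPM with a median of 0.481 CPM, and the responders had 0.0602, 0.991, 1.93 and 0.641 CPM. Apart from ground control 6, no library was above 2.42 CPM. The log2 fold change of the responders against ground controls was -2.48 (SE 1.43, adjusted p = 0.98 by edgeR), and it was 0.85 without ground control 6, 0.25 within the ISS arm and -2.91 within the LAR arm. Its direction thus turned with 1 library.

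H19 and Igf2 moved with skeletal muscle RNA from library to library, as the plot of imprinted genes against library measures shows. The 8 muscle markers (8 of 8 in the table, none at 0 in all libraries) summed to 12.8 to 56024 CPM in the ground controls, 9.38 to 4067 CPM in the non-responders and 373 to 2443 CPM in the responders. Across the 16 libraries, H19 correlated with the log2 sum with Pearson's r = 0.91 (permutation p = 1e-05, the smallest these resamples can give, adjusted p = 0.00064) and Spearman's rho = 0.94 (permutation p = 1e-05, adjusted p = 0.00064). Without the 2 libraries farthest from the median sum, r was 0.89, and it was 0.80 in the ISS arm and 0.96 in the LAR arm. Igf2 had r = 0.74 (permutation p = 0.0008, adjusted p = 0.013) and rho = 0.74 (permutation p = 0.00135, adjusted p = 0.024), with r = 0.67 without the 2 farthest libraries, 0.58 in the ISS arm and 0.82 in the LAR arm. The relation was chosen after seeing the data, and these 2 were among 64 relations computed, of each of the 32 members with muscle RNA and with the share of intron reads.

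**Figure D2:**
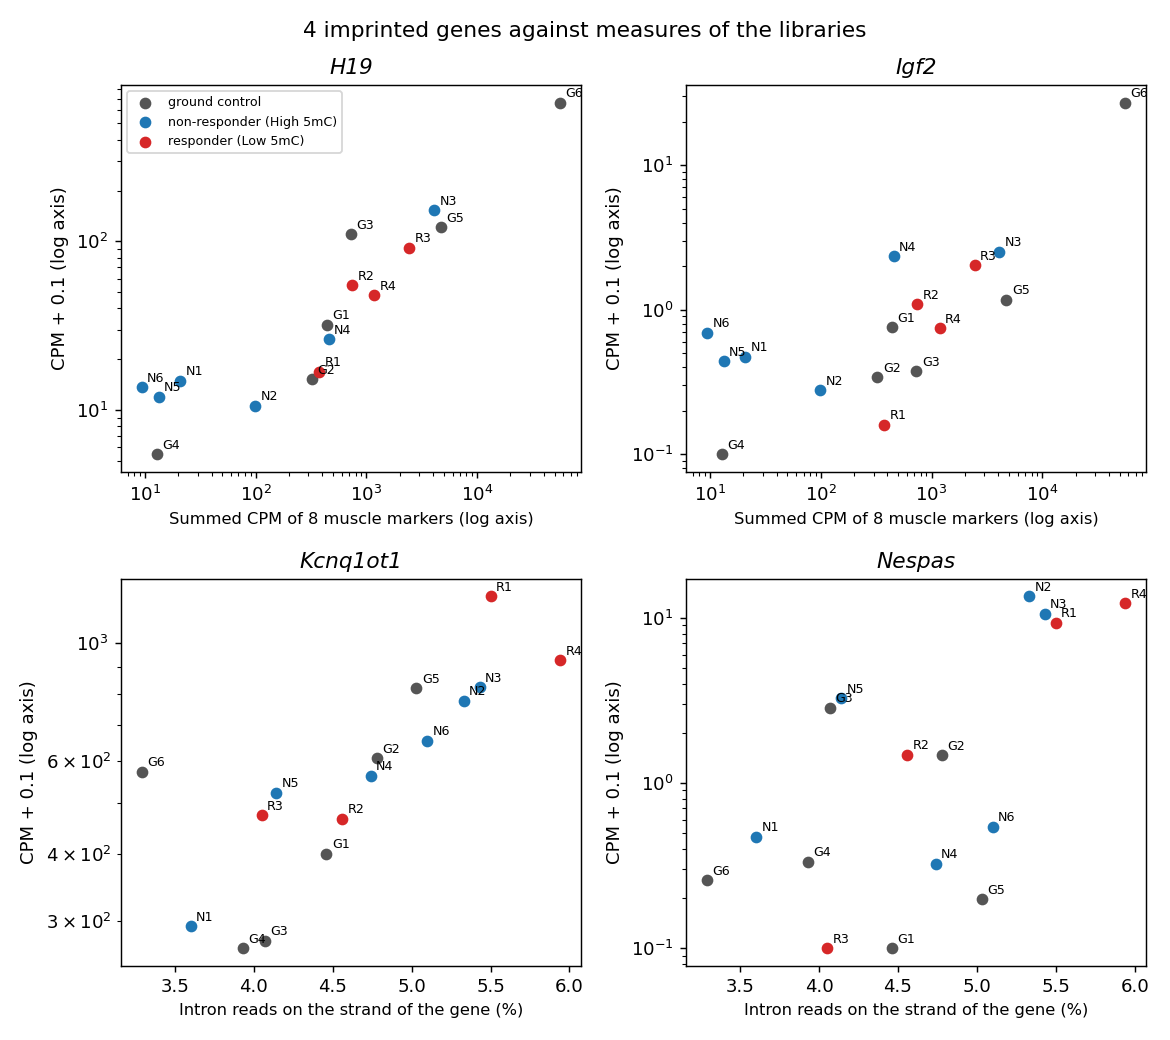
Levels of H19 and Igf2 against the summed CPM of 8 muscle markers, and of Kcnq1ot1 and Nespas against the share of reads in introns on the strand of the gene (%); each point is a library (G ground control, N non-responder, R responder) and CPM axes are log axes with 0.1 added. Ground control 6 lies at the upper right for H19 (665 CPM) and Igf2 (27 CPM), and the 4 libraries above 9 CPM of Nespas are the 4 with the highest intron share.

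Zdbf2, a paternally expressed zinc finger gene, also followed the muscle sum (r = 0.81, permutation p = 7e-05, adjusted p = 0.0022, and rho = 0.74, permutation p = 0.00147, adjusted p = 0.024). Its r was 0.76 without the 2 farthest libraries, 0.67 in the ISS arm and 0.95 in the LAR arm. It was at 0 in the lowest, 0.113 CPM in the median and 5.43 CPM in the highest ground control, 0 to 2.64 CPM in the non-responders, and 1.14, 0.396, 0.669 and 0.427 CPM in the responders. These are counts at the floor of the libraries in most mice. The median r of the 32 members with the muscle sum was 0.38, beside 0.04 over all genes tested, and 3 of the 32 members (9.38%) had an r beyond 0.7 in size, against 2.47% of all genes.

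The receptors and signal adaptors of growth control were detected in every library. Igf2r, the maternally expressed receptor that clears Igf2, was at 33.4 to 203 CPM in the ground controls with a median of 64.7 CPM. It was at 61.2 to 179 CPM in the non-responders with a median of 85.1 CPM, and at 93.1, 46.9, 68.4 and 128 CPM in the responders. The ranges overlapped throughout. Grb10, an adaptor that restrains insulin and IGF receptors, was at 2.12 to 34.3 CPM in the ground controls (median 4.60 CPM), 3.34 to 14.9 CPM in the non-responders (median 4.78 CPM), and 5.78, 5.75, 3.87 and 5.37 CPM in the responders. Ground control 6 had the highest level of both genes.

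Gnas encodes the stimulatory G protein alpha subunit and other products with different parental origin, which gene-level counts add together. It lies at chr2:174284320-174346742 (mm10, plus strand). Its level was 129 CPM in the lowest, 195 CPM in the median and 1105 CPM in the highest ground control. The non-responders had 152 to 460.2 CPM with a median of 163 CPM, and the responders had 140.1, 167, 245 and 177 CPM. Ground control 6 was the highest library and non-responder 4 the next, and the other 14 libraries lay between 129 and 245 CPM.

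**Figure D3:**
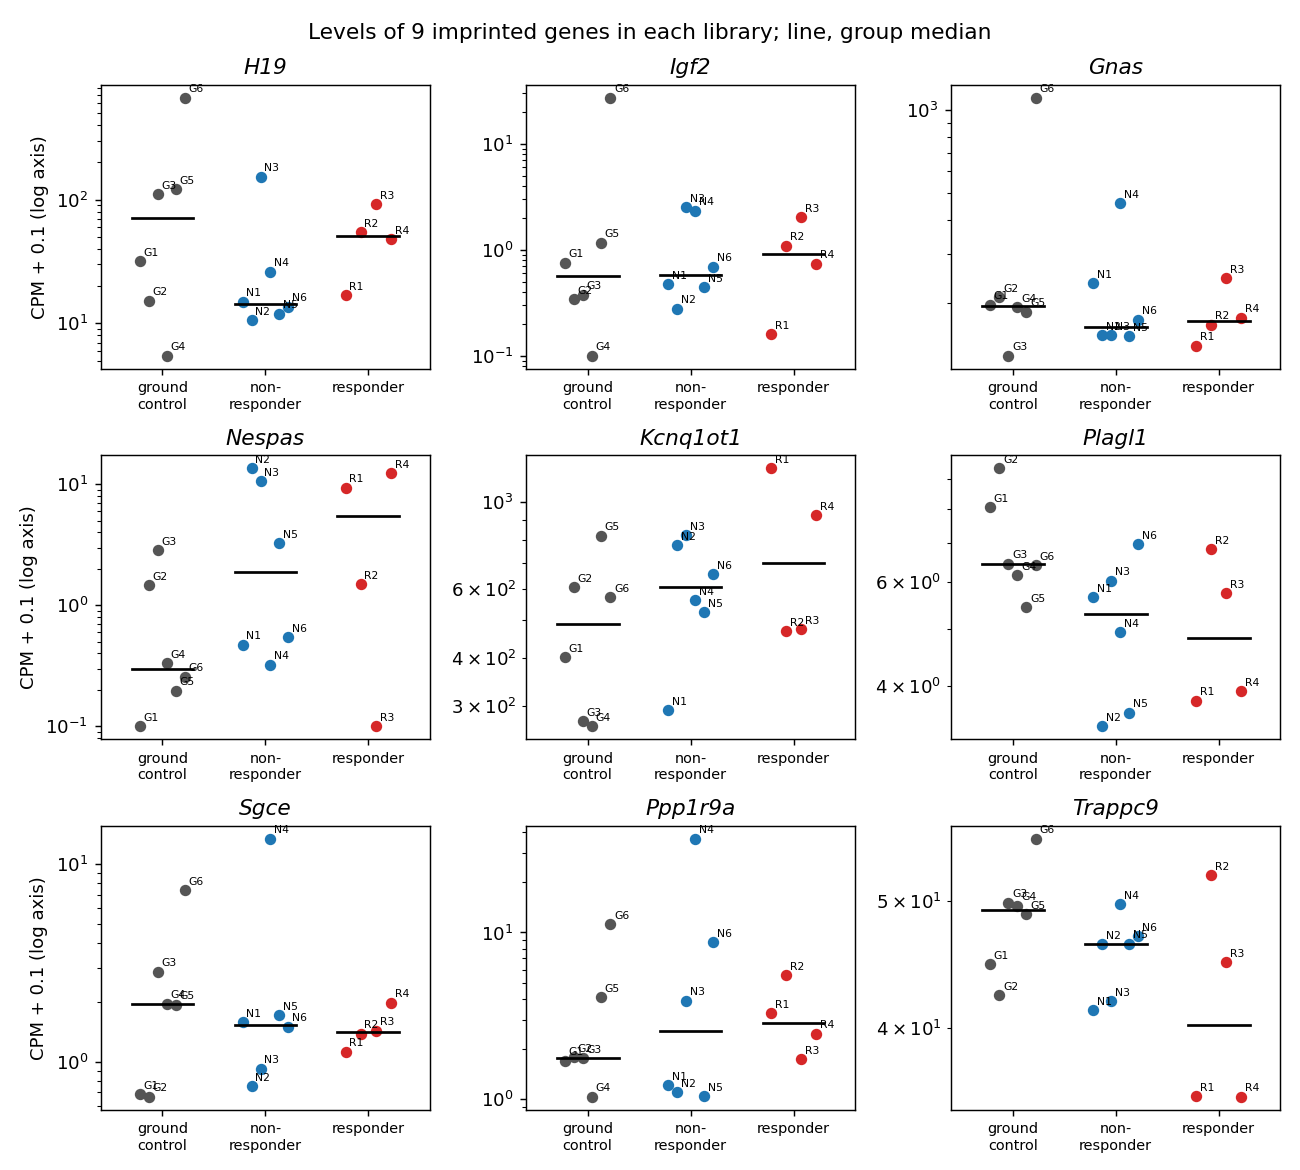
Level of 9 imprinted genes in each library (y axis, CPM + 0.1 on a log axis) by group (x axis), with a line at the group median; labels give the group (G ground control, N non-responder, R responder) and the replicate. Ground control 6 is the highest library for H19, Igf2 and Gnas, non-responder 4 for Sgce and Ppp1r9a, and Trappc9 spans 35.4 to 55.7 CPM over all 16 libraries.

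Nespas, the paternally expressed RNA antisense to the Nesp transcript of the Gnas locus (chr2:174281237-174295436, mm10, minus strand), had the smallest p of the members in both comparisons with ground controls. It was at 0 in the lowest, 0.195 CPM in the median and 2.76 CPM in the highest ground control. The non-responders had 0.224 to 13.4 CPM with a median of 1.80 CPM, and the responders had 9.28, 1.39, 0 and 12.2 CPM. Some mice of each flight cohort were thus high and others as low as the controls. The log2 fold change was 3.09 in the responders (SE 1.41, unadjusted p = 0.043, adjusted p = 0.98 by edgeR) and 2.82 in the non-responders (SE 1.33, unadjusted p = 0.050, adjusted p = 0.66 by edgeR). With the share of intron reads as a covariate, an alternative chosen after seeing the data, these values were 0.51 and 1.32. That share itself differed between the groups, as given below. With the mission arm as a covariate the fold changes were 3.89 and 2.75, within the ISS arm 2.11 and 2.74, and within the LAR arm 5.27 and 2.97. Leaving out each library in turn gave 2.43 to 3.90 in the responders and 2.19 to 3.63 in the non-responders. The highest value of each range was that without ground control 3. Exons of Gnas and Nespas overlap by 111 bases on opposite strands, and the strand setting of the counting is not given in the sources used here. The share of coding reads on the reverse strand was 90.4 to 94.0% in the ground controls and 92.0 to 95.3% in the non-responders. In the responders it was 96.0 to 97.5%, above every library of the other groups. The part of this share in the levels of Nespas and the other antisense RNAs was not tested.

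Kcnq1ot1, the paternally expressed antisense RNA that silences the Kcnq1 cluster, was the member with the highest mean count (chr7:143213111-143296547, mm10, minus strand). It was counted over 83437 exon bases, and per length it was number 8 of the 34 members, with a median of 6.79 CPM per kilobase. The ground controls had 266 to 822 CPM with a median of 486 CPM. The non-responders had 293 to 825 CPM with a median of 608 CPM, and the responders had 1223, 467, 473 and 926 CPM. The log2 fold change of the responders against ground controls was 0.65 (SE 0.38, adjusted p = 0.98 by edgeR), and it was 0.13 with the share of intron reads as a covariate. Without responder 1, the library with liver markers and the highest Kcnq1ot1 level, it was 0.35, and leaving out each other library in turn gave 0.53 to 0.86. It was 0.98 within the ISS arm and 0.34 within the LAR arm.

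The share of all reads that fell in introns on the strand of the gene was 3.29 to 5.03% in the ground controls, 3.60 to 5.43% in the non-responders and 4.05 to 5.94% in the responders. The medians were 4.27%, 4.92% and 5.03% in that order, and ground control 6 had the lowest share (3.29%). Because the share differed with group, fits with it as a covariate cannot fully separate the 2. Kcnq1ot1 correlated with it across the 16 libraries with r = 0.78 (permutation p = 0.00037, adjusted p = 0.0079) and rho = 0.84 (permutation p = 0.0001, adjusted p = 0.0032). Its r was 0.91 without the 2 farthest libraries, 0.95 in the ISS arm and 0.68 in the LAR arm. Kcnq1ot1 was the 1 member of 32 (3.1%) with an r beyond 0.7 in size, near the 2.8% of all genes. The median r with the intron share was 0.01 over the members and -0.03 over all genes tested. Nespas had r = 0.63 (permutation p = 0.011, adjusted p = 0.10) and rho = 0.61 (permutation p = 0.014, adjusted p = 0.13), with r = 0.52 without the 2 farthest libraries, so that this relation did not pass the correction. Non-responders 2 and 3 and responders 1 and 4 had the 4 highest shares and the 4 highest levels of Nespas. The part of the intron share in the levels of these RNAs was not tested beyond these values.

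The genes around Kcnq1ot1 include Cdkn1c, which blocks cyclin-dependent kinases, Phlda2, which restrains growth of the placenta, the potassium channel Kcnq1, the transporter Slc22a18, the stem cell factor Ascl2 and the tetraspanin Cd81. Cd81 was the most abundant of them per length, at 14.9 to 40.6 CPM in the ground controls (median 19.8 CPM), 16.4 to 57.2 CPM in the non-responders (median 20.4 CPM), and 14.6, 8.72, 17.3 and 34.7 CPM in the responders. Cdkn1c was at 1.69 to 8.56 CPM in the ground controls, 0.946 to 10.4 CPM in the non-responders, and 2.95, 3.86, 2.38 and 3.75 CPM in the responders. Ascl2 ranged from 0.361 CPM in responder 1 to 14.6 CPM in responder 3, both within the same cohort. Kcnq1 and Phlda2 stayed below 7 CPM in all libraries. Kcnq1 and Kcnq1ot1 share 121 exon bases on opposite strands.

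Airn, the paternally expressed RNA antisense to Igf2r, was at 0.233 to 6 CPM in the ground controls (median 1.54 CPM), 0 to 5.17 CPM in the non-responders (median 3.62 CPM), and 6.39, 0.297, 0.892 and 4.58 CPM in the responders. The responders 1 and 4 were high and the responders 2 and 3 low. Airn is known to silence Igf2r on the paternal copy. The levels of the pair, summed over both copies, were positively related across mice (r = 0.77, permutation p = 0.00053, adjusted p = 0.0032, and rho = 0.87, permutation p = 5e-05, adjusted p = 0.0006). The r was 0.72 without the 2 farthest libraries, 0.79 in the ISS arm and 0.93 in the LAR arm. Their exons do not overlap, but Airn starts within Igf2r.

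Relations within clusters were computed for 12 pairs of measured members, and 4 passed the adjusted threshold by Pearson's r. Besides Igf2r and Airn these were H19 and Igf2 (r = 0.83, permutation p = 1e-04, adjusted p = 0.0012, and rho = 0.76, permutation p = 0.00106, adjusted p = 0.0042), with r = 0.64 without the 2 farthest libraries, 0.71 in the ISS arm and 0.90 in the LAR arm. Peg3 and Zim1 had r = 0.76 (permutation p = 0.00091, adjusted p = 0.0036) and rho = 0.79 (permutation p = 0.00045, adjusted p = 0.0027), with r = 0.70 without the 2 farthest libraries, 0.62 in the ISS arm and 0.94 in the LAR arm. Meg3 and Rian had r = 0.68 (permutation p = 0.0043, adjusted p = 0.013) and rho = 0.64 (permutation p = 0.0089, adjusted p = 0.021), with r = 0.72 without the 2 farthest libraries, 0.46 in the ISS arm and 0.94 in the LAR arm. H19 and Igf2, Igf2r and Airn, and Peg3 and Zim1 are each expressed from opposite parental copies, and Meg3 and Rian from the same copy. The share of other gene pairs with an r of this size was not computed. The count of 4 pairs therefore does not set these clusters apart from other genes in libraries that differ in tissue.

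Gnas and Nespas had a negative relation that passed the adjusted threshold by rank (rho = -0.74, permutation p = 0.0017, adjusted p = 0.0051) and not by Pearson's r (r = -0.51, permutation p = 0.029, adjusted p = 0.059). The r was -0.71 without the 2 farthest libraries, -0.71 in the ISS arm and -0.40 in the LAR arm. Kcnq1 with Kcnq1ot1 (r = 0.28, adjusted p = 0.40 by permutation), Mest with Copg2 (r = 0.25, adjusted p = 0.44 by permutation) and Peg13 with Trappc9 (r = 0.40, adjusted p = 0.21 by permutation) did not pass. Mest and Copg2 share 913 exon bases on opposite strands, 32.9% of the exons of Mest.

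Peg3, a paternally expressed zinc finger protein, was at 17.7 to 73.5 CPM in the ground controls (median 36.2 CPM), 14.8 to 65.0 CPM in the non-responders (median 32.4 CPM), and 40.9, 28.3, 24.4 and 48.2 CPM in the responders. Zim1 was lower, at 0.146 to 4.97 CPM, 0.148 to 12.4 CPM, and 7.71, 2.48, 0.743 and 6.65 CPM in the same order of groups. Meg3, the maternally expressed long noncoding RNA of the Dlk1 cluster, was at 6.28 to 30.4 CPM in the ground controls (median 14.3 CPM), 5.19 to 29.6 CPM in the non-responders (median 10.5 CPM), and 26.1, 39.5, 4.39 and 18.2 CPM in the responders. The highest and the lowest Meg3 level of all 16 mice were both in the responder cohort. Rian, a snoRNA host beside Meg3, was at 0.658 to 11.5 CPM over all libraries.

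Plagl1, a paternally expressed zinc finger factor with roles in cell cycle arrest (chr10:13090788-13131695, mm10), had levels that were close from mouse to mouse. It was at 5.34 CPM in the lowest, 6.34 CPM in the median and 9.28 CPM in the highest ground control. The non-responders had 3.31 to 6.87 CPM with a median of 5.20 CPM, and the responders had 3.67, 6.74, 5.65 and 3.81 CPM. In each flight cohort some mice lay below every ground control and others within their range. The log2 fold change was -0.48 in the responders (SE 0.28, adjusted p = 0.98 by edgeR) and -0.47 in the non-responders (SE 0.25, adjusted p = 0.66 by edgeR), each with a 95% interval that held 0 (-1.07 to 0.12 and -1.0 to 0.06). Within the ISS arm the values were -0.61 and -0.69, and within the LAR arm -0.32 and -0.22. Plagl1 and Nespas were both among the 4 members of smallest p in each of these comparisons, which share their controls.

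Commd1, a maternally expressed gene of copper handling and NF-kB control whose intron holds Zrsr1, was at 9.81 to 50.2 CPM in the ground controls (median 11.6 CPM). The non-responders had 9.60 to 18.6 CPM with a median of 9.96 CPM, and the responders had 9.70, 10.1, 14.9 and 12.1 CPM. Ground control 6 alone was above 18.6 CPM. In the non-responders against ground controls its log2 fold change was -0.71 (SE 0.38, adjusted p = 0.66 by edgeR), and it was -0.11 without ground control 6, -0.17 within the ISS arm and -1.17 within the LAR arm.

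The 4 members of smallest p between the cohorts were Ppp1r9a, Sgce, Ndn and Peg13. Sgce encodes epsilon-sarcoglycan of the dystrophin complex and is paternally expressed (chr6:4674350-4747204, mm10). It was at 0.565 to 7.31 CPM in the ground controls (median 1.86 CPM), 0.651 to 13.4 CPM in the non-responders (median 1.44 CPM), and 1.02, 1.29, 1.34 and 1.89 CPM in the responders. The medians of the cohorts were close, and non-responder 4 alone set the high end. Responders differed from non-responders by a log2 fold change of -1.24 (SE 0.89, adjusted p = 1.0 by edgeR) and it was 0.22 without non-responder 4, 0.34 within the ISS arm and -1.75 within the LAR arm.

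Ppp1r9a, its neighbour that encodes the actin-binding neurabin, was at 0.934 to 11.1 CPM in the ground controls (median 1.68 CPM), 0.939 to 36.3 CPM in the non-responders (median 2.45 CPM), and 3.19, 5.45, 1.64 and 2.38 CPM in the responders. Between the cohorts its log2 fold change was -1.48 (SE 1.0, adjusted p = 1.0 by edgeR), and -0.04 without non-responder 4, 1.05 within the ISS arm and -2.92 within the LAR arm. Ndn, the paternally expressed necdin of postmitotic cells and adipocyte precursors, had 0.646 to 4.44 CPM in the ground controls (median 1.98 CPM), 0.355 to 6.59 CPM in the non-responders (median 2.06 CPM), and 0.361, 2.97, 1.64 and 1.19 CPM in the responders. Its log2 fold change was -0.94 (SE 0.73, adjusted p = 1.0 by edgeR), and -0.51 without non-responder 4, -1.45 without responder 2, -0.41 within the ISS arm and -1.34 within the LAR arm. For Sgce, Ppp1r9a and Ndn, the highest of the 16 levels was that of non-responder 4.

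Peg13, a paternally expressed noncoding RNA within Trappc9, was at 14.1 to 60.4 CPM in the ground controls (median 24.8 CPM), 16.4 to 72.8 CPM in the non-responders (median 21.6 CPM), and 19.3, 25.1, 22.5 and 22.4 CPM in the responders. Its log2 fold change between the cohorts was -0.53 (SE 0.43, adjusted p = 1.0 by edgeR), and -0.14 without non-responder 4, 0.11 within the ISS arm and -0.97 within the LAR arm. Adipocyte markers (5 of 5 in the table, none at 0 in all libraries) were summed at 81.8 to 610 CPM in the ground controls, 121 to 3241 CPM in the non-responders and 144 to 308 CPM in the responders, and the part of fat or vessels in these levels was not tested. Trappc9, a trafficking complex subunit, was among the most even genes of the table, at 42.3 to 55.7 CPM in the ground controls, 41.2 to 49.6 CPM in the non-responders, and 35.4, 52.2, 44.8 and 35.4 CPM in the responders.

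The highest levels of the genes were unevenly spread over the libraries, in the whole table as among the members. Of all 14107 genes tested, 16.7% had their highest CPM in ground control 6 and 13.3% in non-responder 4, more than in any other library. Of the 32 tested members, 12 (37.5%) had it in ground control 6 (H19, Igf2, Igf2r, Mest, Grb10, Rian, Ube3a, Gnas, Nnat, Commd1, Trappc9 and Zdbf2) and 8 (25%) in non-responder 4 (Cdkn1c, Slc22a18, Cd81, Sgce, Ppp1r9a, Ndn, Zrsr1 and Peg13). These libraries are 1 ground control and 1 non-responder, both of the LAR arm, and no responder library held more than 2 of the highest values.

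**Figure D4:**
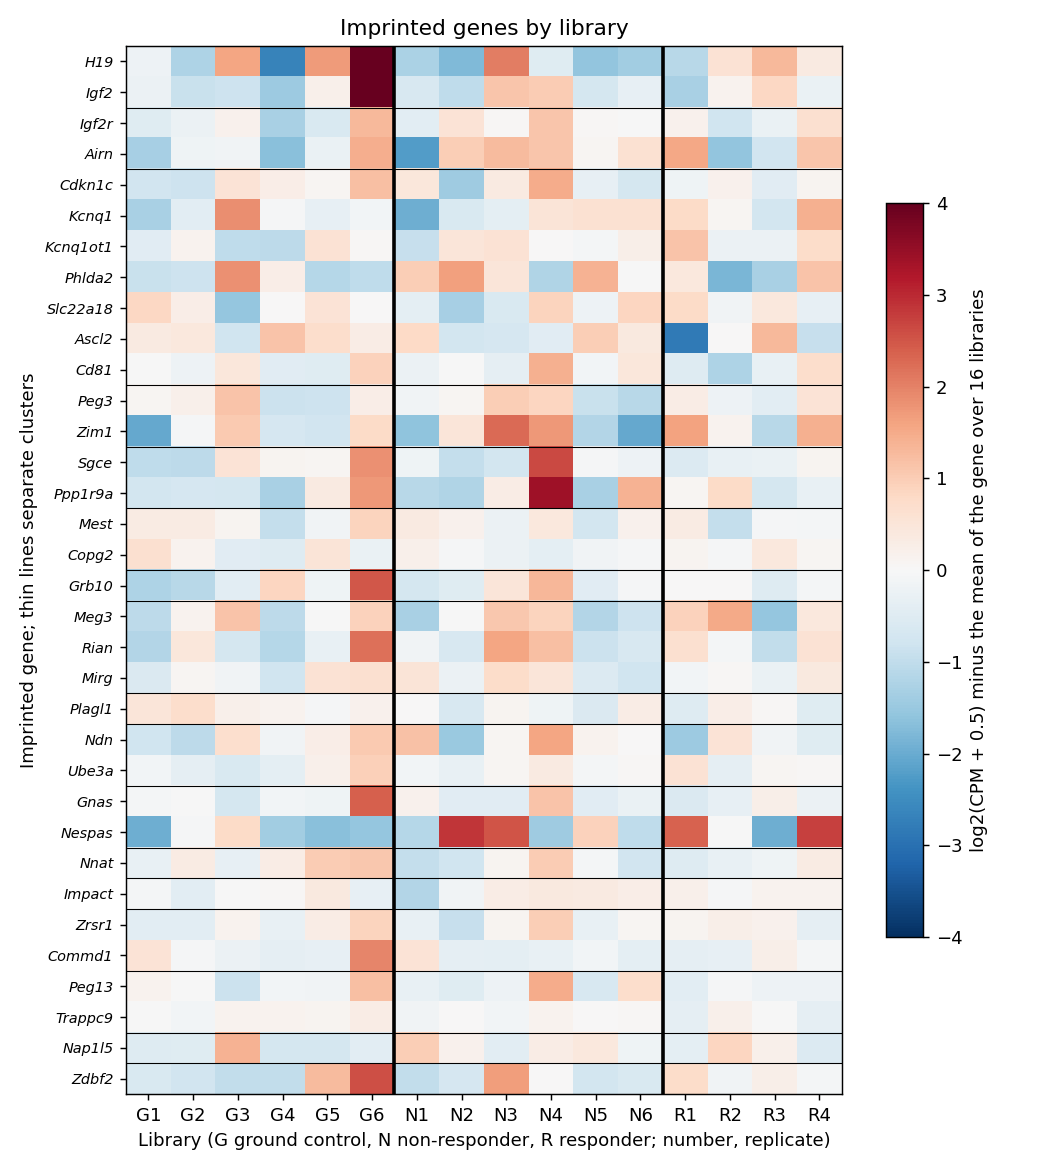
Level of the 34 measured imprinted genes (rows, in clusters) in the 16 libraries (columns), as log2(CPM + 0.5) minus the mean of each gene; red is above and blue below that mean, and thick lines separate the groups. The column of ground control 6 (G6) is red for H19, Igf2, Grb10, Gnas, Commd1 and Zdbf2, that of non-responder 4 (N4) for Sgce and Ppp1r9a, and the row of Nespas is red in N2, N3, R1 and R4.

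The other members were even or close to the detection limit. Ube3a, the maternally expressed ubiquitin ligase of neurons that is expressed from both copies elsewhere, was at 48.4 to 142 CPM in the ground controls (median 62.3 CPM), 60.0 to 93.6 CPM in the non-responders (median 73.1 CPM), and 109, 57.1, 77.2 and 75.6 CPM in the responders. Copg2, a coatomer subunit, was at 24.3 to 54.0 CPM over all 16 libraries, and Zrsr1, a splicing factor retrogene, was at 8.52 to 33.5 CPM. Impact, a regulator of the Gcn2 kinase, was at 3.34 to 10.9 CPM. Mest, Nnat, Mirg and Nap1l5 stayed below 2 CPM in every library, and at this depth no difference between groups was detectable for them.

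By the parental copy annotated for the list, 17 tested members count as maternal, 14 as paternal and Gnas as either by product. The copy in use was not measured in this skin, so the annotation need not hold here for any member. Ube3a, counted as maternal, is for example expressed from both copies outside neurons. In the responders against ground controls, the median log2 fold change was -0.19 over the maternal members (7 above 0, 10 below) and -0.44 over the paternal members (4 above 0, 10 below). In the non-responders the medians were -0.09 and 0.07, and between the cohorts -0.11 and -0.07. No test was made of these medians, and the groups of genes hold members that moved with the libraries named above.

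The RNA levels of proteins that write, read or keep imprints were also examined, as a list of 21 factors of which 18 were in the table and 17 were tested. None was called in any of the 3 comparisons, against 0.00709%, 0% and 0% of all genes. The proteins themselves were not measured. The smallest p in the responders was that of Smchd1, a chromatin protein that silences clusters of imprinted genes and the inactive X chromosome, at 121 ± 67.8 CPM in the responders (SD, n = 4) and 69.8 ± 11.9 CPM in the ground controls (SD, n = 6), with a log2 fold change of 0.79 (SE 0.31, adjusted p = 0.98 by edgeR). Smchd1 also had the smallest p of these factors in the non-responders, at 100.4 ± 31 CPM (SD, n = 6), with a log2 fold change of 0.53 (SE 0.29, adjusted p = 0.66 by edgeR). Zfp445, which guards imprints together with ZFP57, had 84.5 ± 29.7 CPM in the responders and 63.8 ± 9.89 CPM in the ground controls (adjusted p = 0.98 by edgeR). The median log2 fold change of the 17 factors was 0.15 in the responders, 0.09 in the non-responders and 0.07 between the cohorts. Values above 0 were held by 12, 10 and 14 of the 17 in that order. The medians over all genes tested were -0.05, -0.05 and 0.01. A further 27 imprinted genes had medians of -0.17, -0.10 and 0.11 in the same order, with 0 called, and 21 growth pathway partners of imprinted genes had -0.01, 0.10 and 0.05, also with 0 called.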

How the data were processed

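The authors aligned exon-capture reads to mm10 (STAR) and summed them by gene (featureCounts). The deposited counts are raw counts, and they were used for every test. The log2 FPKM values deposited by the authors were looked at and not used. The deposited columns of the authors' own comparisons (fold changes, p-values) were not used. The RNA integrity number is a score deposited by the authors from their Bioanalyzer. Read shares in percent, such as rRNA and intron reads, come from the authors' mapping statistics, and the mission arm of each library from the library sheet of the study.

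Genes were kept by filterByExpr, libraries scaled by TMM, and groups compared in a fit of all 16 libraries by the quasi-likelihood test of edgeR 4.0.16 (R 4.3.3, limma 3.58.1), with Benjamini-Hochberg adjustment over all genes and a threshold of 0.05. Correlations used log2 CPM (prior count 2), with two-sided permutation tests of 100000 resamples. Alternatives included DESeq2 1.42.0, other filters, the arm as a covariate and each library left out. Tests were named for the 4 members of smallest p in each comparison and any past the threshold. The code was tested on simulated data. The members and lists were chosen with earlier results of these data known. P-values of the group comparisons rest on the spread between libraries, 1 from each mouse, which also holds differences in tissue, RNA quality and depth. Those of the correlations concern association across the 16 libraries.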

Additional observations from a re-analysis of the deposited data

Results flagged for a closer look

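Within groups, 8 of 96 combinations of member and group held a library that lay far from the rest by Dixon's test of the gap over the range, taken on log2 CPM (prior count 2), where chance alone gives about 1 in 20. The critical ratio is 0.625 for 6 samples and 0.829 for 4 samples. In the ground controls, Gnas was far higher in number 6 (ratio 0.7724, 1105 CPM against 129 to 210.1 CPM in the others), and Slc22a18 was far lower in number 3 (ratio 0.685, 0.553 CPM against 2.56 to 4.90 CPM). In the non-responders, H19 stood out in number 3 (ratio 0.6619, 153 CPM against 10.5 to 26.1 CPM) and Sgce in number 4 (ratio 0.718, 13.4 CPM against 0.651 to 1.62 CPM).

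Non-responder 1, of 4159342 total counts the shallowest library, held 4 of the 8. Airn (ratio 0.7436) and Kcnq1 (ratio 0.6335) were at 0 there, Impact was low at 3.34 CPM (ratio 0.6606, 7.28 to 10.8 CPM in the others), and Commd1 was high at 18.6 CPM (ratio 0.7118, 9.60 to 11.6 CPM in the others). The part of depth in these values was not tested.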

How the results depend on the processing

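No imprinted gene was called in any of the alternatives run. The 12 named results kept their direction in 322 of 329 alternative values. Igf2 in the responders turned to 0.85 without ground control 6 (range -3.16 to 0.85 over libraries left out) and to 0.25 within the ISS arm, and H19 in the non-responders turned to 0.20 within that arm. Between the cohorts, Sgce turned to 0.22 without non-responder 4 (range -1.50 to 0.22), and within the ISS arm Sgce (0.34), Ppp1r9a (1.05) and Peg13 (0.11) turned. The cause was not tested. Over all genes, the 1 gene called in the responders against ground controls became 21 by the likelihood ratio test and 20 by DESeq2. It became 0 with no filter, with at least 10 counts in every library, with the arm or the intron share as a covariate, with the 2 groups alone and without the 3 libraries of over 39% rRNA reads, and leaving out libraries gave 0 to 1. The fits with the intron share and without the libraries of over 39% rRNA reads were chosen after seeing the data. DESeq2 called 4 genes in the non-responders and 7 between the cohorts, against 0. The median of the members ranged from -0.35 to 0.00 for responders, -0.20 to 0.35 for non-responders and -0.26 to 0.04 between the cohorts when each library was left out. No paired analysis was possible because the groups share no replicate number in the labels. The small cohorts, degraded RNA and wide spread between mice limit what could be detected.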
